A study of Homo sapiens with 12 samples.

Results

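Oxidative phosphorylation subunits are the proteins of the 5 enzyme complexes that pass electrons to oxygen and make ATP at the inner mitochondrial membrane. Their RNA was measured in 4 human glioblastoma cell lines. Members were gene symbols of the expression table beginning with MT-ND, MT-CO, MT-ATP, MT-CYB, UQCR, ATP5 or COX4 to COX8, or with NDUF and a subunit letter (A, B, C, S or V) and number, or equal to SDHA to SDHD. Antisense names and names ending in P and a digit, the usual mark of a pseudogene, were left out. This gave 92 of 31681 symbol rows, of which 13 are encoded in mitochondrial DNA and 79 in the nucleus. Read to the letter, the pseudogene exclusion would also have removed MT-ATP6 and MT-ATP8 and left 90. Both are real subunit genes and were kept. Complex I had 42 members, complex II 3, complex III 8, complex IV 18 and complex V 21. No row carried the name SDHD, so complex II is covered by SDHA, SDHB and SDHC.

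The electron transport chain takes electrons from NADH at complex I (NADH dehydrogenase, the NDUF and MT-ND genes) and from succinate at complex II (the SDH genes). Complex III (UQCR genes and MT-CYB) hands them to cytochrome c, and complex IV (COX and MT-CO genes) passes them to oxygen. Complexes I, III and IV pump protons, and complex V, the ATP synthase (ATP5 and MT-ATP genes), uses the proton gradient to make ATP. The mitochondrially encoded subunits sit in the membrane cores of the complexes and are cut from long shared transcripts, whereas each nuclear subunit has a gene and a promoter of its own. All subunits of complex II are nuclear.

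U251TR and U87TR are temozolomide-resistant lines. Each was grown out of its parent, U251MG or U87MG, in culture under repeated and rising doses of temozolomide, an alkylating drug used against glioblastoma. There was 1 resistant line per parent, so resistance cannot be told apart from other change that arose while that line was derived. Each line had 3 RNA libraries, 12 in all. The labels give no drug in the medium at harvest and do not tell if a line's 3 libraries were grown apart. The p-values therefore reflect the spread among libraries, which may be technical. The 3 U87TR libraries carry codes from a separate number series, which in U87 cannot be told apart from resistance. U251MG replicate 2 stood apart from its group, with rank correlations of 0.977 and 0.978 to the other 2 libraries, which correlated at 0.993 with each other.

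Values are FPKM, fragments scaled by transcript length and library total, a unit inferred from the values. A library summed to between 696371 and 786642 FPKM and held 13153 to 14142 symbols at 1 FPKM or more. Read counts were not analysed here, so depth is unknown and no counting interval can be given. Among fixed markers of other cell types, the leukocyte genes PTPRC and CD3E were at or under 0.08 FPKM, CD14 and ITGAM at or under 0.70 FPKM and the epithelial genes EPCAM and CDH1 at or under 1.19 FPKM in every library. Of the epithelial keratins, KRT18 was lower in U251TR, at 37.9 ± 1.46 FPKM, against 63.8 ± 8.68 FPKM in U251MG, and KRT19 was higher, at 3.81 ± 0.570 FPKM, against 1.11 ± 0.933 FPKM, while in U87 both stayed at or under 1.51 FPKM (SD, n = 3 each here and below). Of the neuron genes, SYT1 was at 2.60 ± 0.328 FPKM in U251TR, against 9.38 ± 6.03 FPKM in U251MG, RBFOX3 at 2.59 ± 1.95 FPKM in U87TR, against 0.133 ± 0.0681 FPKM in U87MG, and SNAP25 at 16.9 ± 1.04 FPKM in U87TR, against 16.7 ± 2.30 FPKM in U87MG. The endothelial genes CDH5 and KDR were higher in U251TR (11.2 ± 0.624 and 6.85 ± 0.408 FPKM) than in U251MG (6.69 ± 1.35 and 2.93 ± 0.98 FPKM; SD, n = 3 each), while VWF stayed at or under 0.47 FPKM in all 12 libraries. Of the glioma markers, VIM was at 773 FPKM or more in every library, SOX2 was at or under 0.30 FPKM in both U87 lines, and GFAP averaged 396 ± 17.4 FPKM in U251TR and 22.8 ± 6.19 FPKM in U251MG. GFAP had the largest rise among 9 fixed glioma markers. By the test given below, 3 of the 9 were higher and 5 lower in U251TR, where 33.6% and 19.6% of all genes tested were. Their log2 fold changes ran from -2.70 to 4.09. In U87TR 2 were higher and 3 lower, where 10.6% and 17.2% of all genes tested were. The part of these marker differences in the results below was not tested.

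A gene is said to rise or fall where its adjusted p was under 0.05 in limma on log2(FPKM + 1), with Benjamini-Hochberg adjustment over 15449 genes. These are the genes that reached 1 FPKM in 3 libraries or more. All log2 fold changes are on that scale. Of the members, 88 passed that filter, the 13 mitochondrial and 75 nuclear ones. The 4 that did not were the COX6B2 and COX7A1 isoform genes, the paralog ATP5L2 and the readthrough NDUFC2-KCTD14. The name rule also took in genes that are not subunits proper. Those tested were ATP5S and ATP5SL, the readthrough ATP5J2-PTCD1, the paralog NDUFA4L2 and COX7A2L, a factor of supercomplexes (joined complexes). They stay in the counts of 75, and the other 70 are called subunits proper.

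The 13 mitochondrially encoded subunit RNAs ranged from 785 FPKM for MT-ND6 in a U251MG library to 15858 FPKM for MT-ND4L in a U87MG library. Together they took 7.41%, 7.14% and 6.66% of the summed FPKM in the U251TR libraries, against 7.29%, 8.25% and 7.77% in U251MG. In U87TR they took 8.07%, 7.87% and 7.73%, against 8.25%, 8.32% and 7.83% in U87MG. The mean share was lower in both resistant lines, with a difference of -0.696 percentage points in U251 and of -0.244 in U87, and libraries of resistant and parental line overlapped in each. With the ribosomal RNAs MT-RNR1 and MT-RNR2 in the sum the differences were -0.640 and -0.0787. Without U251MG replicate 2 the first became -0.456, and without U87MG replicate 3 the second became -0.395. The 79 nuclear members together took 2.03% to 2.20% in U251TR and 1.90% to 2.17% in U251MG, and 1.998% to 2.17% in U87TR and 1.96% to 2.13% in U87MG.

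**Figure D1:**
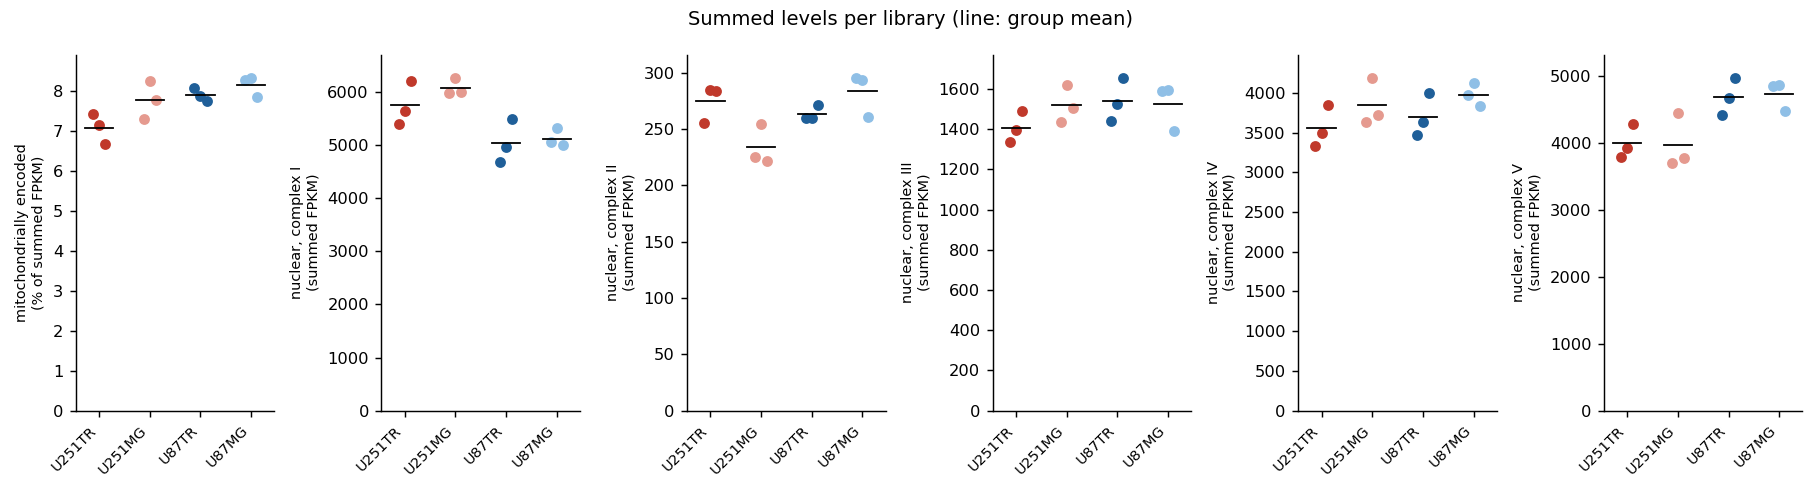
Summed levels per library, with points for the 3 libraries of each line and a line for their mean: the left panel gives the 13 mitochondrially encoded subunits in percent of summed FPKM, the others the nuclear members of each complex in summed FPKM. Complex II is the panel in which all U251TR libraries (255 to 285 FPKM) lie above all U251MG libraries (221 to 254 FPKM), and in the other 5 panels the libraries of U251TR and U251MG overlap.

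In bulk RNA, fewer cells of a kind and less RNA per cell cannot be told apart. In U251TR, 7 of the 13 mitochondrially encoded RNAs fell and none rose, where 53.2% of all genes tested changed, 33.6% rose and 19.6% fell. At an unadjusted limma p under 0.05 the counts were also 7 and 0. The 7 belonged to complexes I, III, IV and V. MT-CYB, the cytochrome b of complex III and its one mitochondrial subunit, had 1619, 1675 and 1478 FPKM in U251TR libraries, against 2470, 2252 and 2441 FPKM in U251MG. The groups lie clear of each other (log2 fold change -0.59, SE 0.07, limma adjusted p = 2.92e-05). MT-CO3, a core subunit of complex IV, had 5053, 4855 and 4865 FPKM in U251TR libraries, against 6515, 7684 and 6971 FPKM in U251MG (-0.52, SE 0.07, limma adjusted p = 6.78e-05). Again no library overlapped.

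The other complex IV core subunits did not follow MT-CO3. MT-CO1, which holds the site where oxygen is reduced, averaged 8486 ± 151 FPKM in U251TR and 7932 ± 624 FPKM in U251MG (SD, n = 3 each). MT-CO2, which takes electrons from cytochrome c, averaged 7754 ± 47.9 FPKM in U251TR and 7482 ± 177 FPKM in U251MG. Neither passed the test (limma adjusted p = 0.212 and 0.505). MT-CO1 passed as a rise without U251MG replicate 2 (log2 fold change 0.16, limma adjusted p = 0.0203) and on values rescaled to a fixed sum per library (TPM; 0.21, limma adjusted p = 0.0169), and had a log2 fold change of -0.039 under median-of-ratios scaling.

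Both mitochondrial subunits of the ATP synthase fell in U251TR. MT-ATP6, which forms the proton path beside the rotor, had 3415, 3977 and 3538 FPKM in U251TR libraries, against 4912, 5753 and 5101 FPKM in U251MG (log2 fold change -0.53, SE 0.08, limma adjusted p = 0.000121). MT-ATP8 had 2307, 2334 and 2205 FPKM in U251TR libraries, against 3235, 3671 and 3250 FPKM in U251MG (-0.57, SE 0.13, limma adjusted p = 0.00282). These 2 genes overlap in 1 RNA, so their values are not independent. The ratio of MT-ATP8 to MT-ATP6 was 0.676, 0.587 and 0.623 in U251TR libraries, against 0.659, 0.638 and 0.637 in U251MG. MTATP6P1, a nuclear near-copy of MT-ATP6 that could take some of its reads, reached 169 to 184 FPKM in U251TR and 203 to 255 FPKM in U251MG, far under MT-ATP6 itself.

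Of the 7 mitochondrial complex I subunits, which build the proton-pumping membrane arm, MT-ND2, MT-ND3 and MT-ND4L fell in U251TR by 0.32, 0.44 and 0.32 on the log2 scale. MT-ND3 had 3838, 3847 and 4156 FPKM in U251TR libraries, against 5034, 5340 and 5737 FPKM in U251MG. MT-ND1, MT-ND4, MT-ND5 and MT-ND6 did not pass, with log2 fold changes of -0.07, -0.13, -0.06 and 0.12. MT-ND6 is the one subunit read from the other strand of mitochondrial DNA. MT-ND4L overlaps MT-ND4 in 1 RNA, and their ratio was 4.44, 3.97 and 4.18 in U251TR libraries, against 4.68, 4.94 and 4.68 in U251MG.

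These falls depend in part on how libraries are scaled. The median log2 fold change of the mitochondrially encoded subunits was -0.316, and 0.089 under quantile normalization. MT-ATP6, MT-CO3 and MT-ND3 fell under all 21 other settings in which they were fitted. MT-CYB and MT-ATP8 kept a negative fold change but missed the threshold under quantile normalization. MT-ND2 and MT-ND4L turned to log2 fold changes of 0.18 and 0.26 under quantile normalization, with no pass. The 12S ribosomal RNA of the same genome, MT-RNR1, moved the other way and rose in U251TR (1341 ± 56.5 FPKM, against 979 ± 44.8 FPKM in U251MG; log2 fold change 0.45, limma adjusted p = 0.000137), while the 16S RNA MT-RNR2 averaged 3001 ± 167 FPKM in U251TR and 3290 ± 243 FPKM in U251MG, with no pass.

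**Figure D2:**
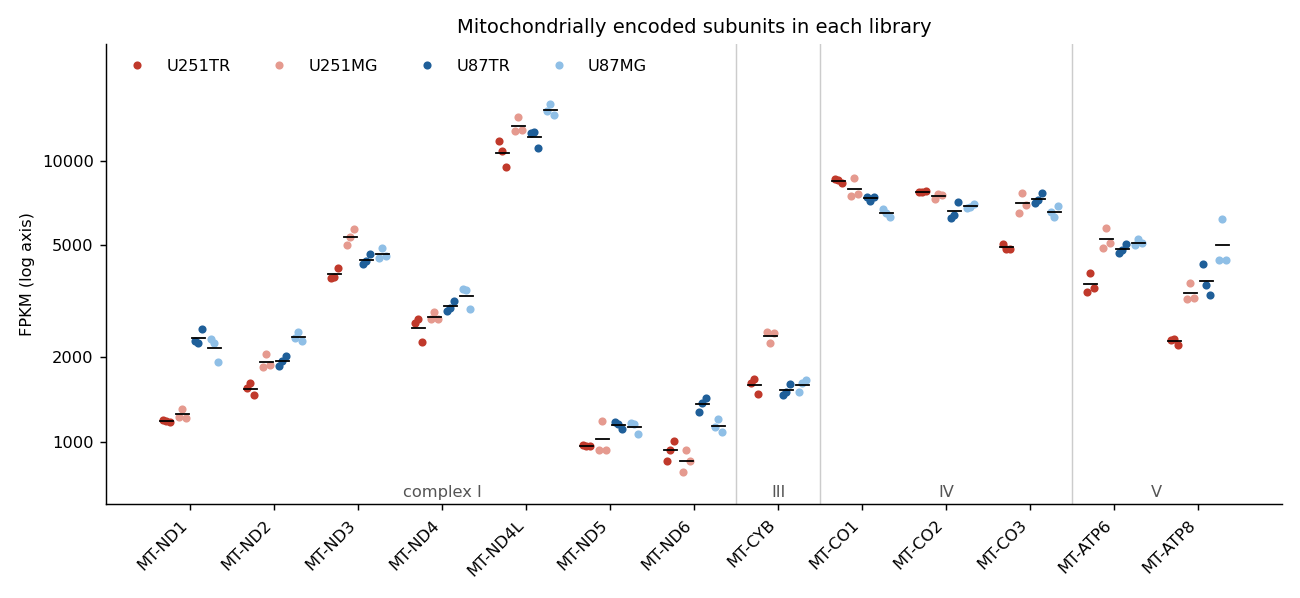
FPKM on a log axis for the 13 mitochondrially encoded subunits, by complex, in each of the 12 libraries, with the group mean as a bar. The U251TR libraries of MT-CYB, MT-CO3, MT-ATP6 and MT-ATP8 lie under all U251MG libraries, while those of MT-CO1 and MT-CO2 do not.

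In U87TR, 3 mitochondrially encoded subunits fell and 1 rose, where 27.8% of all genes tested changed, 10.6% rose and 17.2% fell. MT-ND2 had 1867, 1939 and 2020 FPKM in U87TR libraries, against 2340, 2452 and 2288 FPKM in U87MG (log2 fold change -0.28, SE 0.07, limma adjusted p = 0.00818), with no overlap. MT-ND4L fell by 0.32 and MT-ATP8 by 0.41 on the log2 scale, and MT-ND6 rose by 0.26. Of the 4, MT-ND2 passed under all 21 other settings, MT-ND4L under 17, MT-ATP8 under 14 and MT-ND6 under 13. Without U87TR replicate 2, U87TR replicate 3 or U87MG replicate 2, the 4 calls became 2, 1 and 1. The ribosomal RNAs MT-RNR1 and MT-RNR2 both rose in U87TR, by 0.63 and 0.50 on the log2 scale. MTATP6P1 was at 265 to 350 FPKM in U87TR and 197 to 258 FPKM in U87MG.

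The change of MT-CO3, MT-CYB, MT-ATP6 and MT-ND3 differed between the lines. The difference, the U87 change minus the U251 change, was 0.67, 0.53, 0.45 and 0.38 on the log2 scale (limma adjusted p = 0.000198, 0.00115, 0.00507 and 0.00733). Across all genes tested, 47.6% had a difference that passed, 15.4% higher and 32.1% lower. MT-CO3 had 7051, 7228 and 7667 FPKM in U87TR libraries, against 6590, 6313 and 6880 FPKM in U87MG, above its parent where U251TR was below. Its change within U87 did not pass (log2 fold change 0.15, limma adjusted p = 0.140). No mitochondrial subunit had a difference that passed in the lower direction, and 4 of 13 passed in the higher one. Under quantile normalization the difference of MT-CO3 passed and those of MT-CYB, MT-ATP6 and MT-ND3 did not. Those of MT-ND2 and MT-ND6 turned negative under it. The median difference of the mitochondrially encoded subunits was 0.134, and -0.21 under quantile normalization.

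Among the 75 nuclear members tested, 15 rose and 19 fell in U251TR. That is 20% and 25.3%, where 33.6% of all genes tested rose and 19.6% fell, and their median log2 fold change was -0.084, where that of all genes tested was 0.096. Under median-of-ratios scaling 10 rose and 33 fell, where 26.9% and 26% of all genes tested did. On TPM 21 rose and 16 fell, where 39.4% and 15.3% of all genes tested did. The TPM scaling shifts the median of all genes in this comparison to 0.197. Without U251MG replicate 2, 22 rose and 18 fell, where 36.5% and 21.5% of all genes tested did. Of the 70 subunits proper, 14 rose (20%) and 19 fell (27.1%). Of all 92 members, 15 had all U251TR libraries above and 32 all below those of U251MG, where 36.4% and 22.6% of genes tested did. The 5 complexes did not move as blocks, and complexes I, IV and V each held members with opposite changes.

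**Figure D3:**
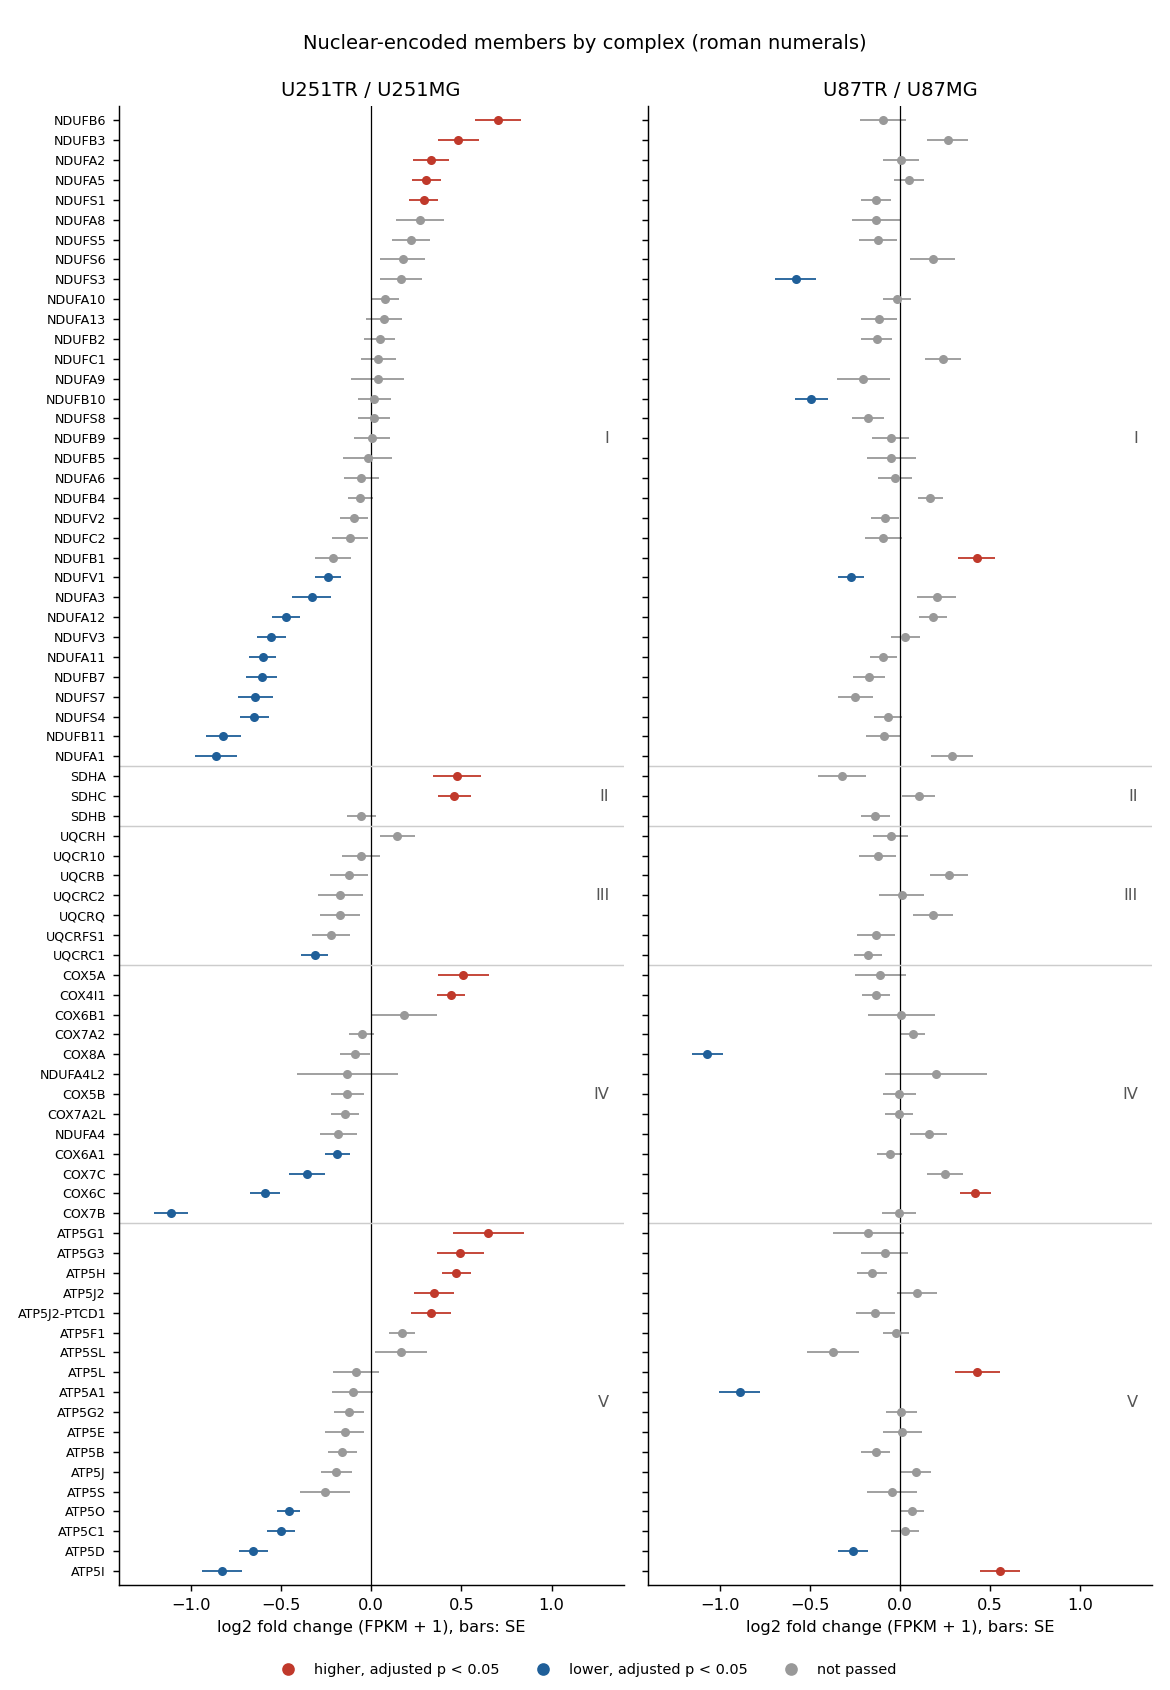
Log2 fold change on the log2(FPKM + 1) scale of 74 of the 75 nuclear members tested, with bars for the standard error, in U251TR over U251MG (left) and U87TR over U87MG (right), grouped by complex and ordered by the U251 change. Complexes I, IV and V span from members that rose to members that fell in U251TR, and most U87TR points lie near 0 apart from COX8A, ATP5A1, NDUFS3 and ATP5I.

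Complex I had 34 nuclear members tested, of which 6 rose and 10 fell in U251TR, 17.6% and 29.4%, where 33.6% and 19.6% of all genes tested did. The rises were led by NDUFB6, an accessory subunit of the distal membrane arm, with 83.9, 86.8 and 97.2 FPKM in U251TR libraries, against 48.5, 63.2 and 52.6 FPKM in U251MG (log2 fold change 0.70, SE 0.13, limma adjusted p = 0.000592). Every U251TR library lay above every U251MG library. NDUFB3, another distal arm subunit, rose by 0.48, also with no overlap.

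The falls in complex I were larger than the rises and were led by NDUFA1 and NDUFB11, both accessory subunits of the membrane arm. NDUFA1 had 49.1, 51.1 and 63.1 FPKM in U251TR libraries, against 92.0, 109 and 96.7 FPKM in U251MG (log2 fold change -0.86, SE 0.12, limma adjusted p = 6.73e-05). NDUFB11 had 62.2, 63.3 and 73.3 FPKM in U251TR libraries, against 120, 116 and 117 FPKM in U251MG (-0.82, SE 0.10, limma adjusted p = 2.13e-05). In both genes the highest U251TR library was well under the lowest U251MG library. In the NADH module, the arm that oxidises NADH, 2 of 8 rose and 4 fell, and in the quinone module 2 of 5 rose and 1 fell. NDUFV1, the NADH module subunit that binds flavin and NADH, fell slightly in both lines, to 147 ± 7.47 FPKM in U251TR, against 174 ± 10.4 FPKM in U251MG, and to 105 ± 5.84 FPKM in U87TR, against 127 ± 2.99 FPKM in U87MG (SD, n = 3 each). The call was lost under 3 of the 22 other settings in each line.

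Complex II, which also serves the tricarboxylic acid cycle, had 2 of 3 members rise in U251TR, where 33.6% of all genes tested rose. SDHD had no row and is not among the 3. SDHC, a membrane anchor, had 88.1, 104 and 98.5 FPKM in U251TR libraries, against 66.4, 79.1 and 65.1 FPKM in U251MG (log2 fold change 0.46, SE 0.09, limma adjusted p = 0.00109). SDHA, the flavoprotein that oxidises succinate, had 63.2, 69.9 and 70.2 FPKM in U251TR libraries, against 42.0, 63.9 and 42.2 FPKM in U251MG (0.48, SE 0.13, limma adjusted p = 0.00974). U251MG replicate 2 reached the U251TR range. SDHB, the iron-sulfur subunit, averaged 110 ± 5.23 FPKM in U251TR and 114 ± 2.67 FPKM in U251MG and did not pass.

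In complex III 1 of 7 nuclear members fell (14.3%, where 19.6% of all genes tested fell), UQCRC1, to 282 ± 12.1 FPKM in U251TR, against 351 ± 22.9 FPKM in U251MG, and by limma none rose, at an unadjusted p under 0.05 either. CYC1, the cytochrome c1 subunit, has a name outside the rule. It averaged 86.6 ± 7.43 FPKM in U251TR and 72.5 ± 2.18 FPKM in U251MG (limma adjusted p = 0.0502), and it fell to 139 ± 16.5 FPKM in U87TR, against 197 ± 15.5 FPKM in U87MG (log2 fold change -0.50, limma adjusted p = 0.00273).

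In complex IV 2 of 13 nuclear members rose and 4 fell in U251TR, 15.4% and 30.8%, where 33.6% and 19.6% of all genes tested did. COX7B, an accessory subunit needed for assembly of the complex, had the largest change of all members. It had 25.6, 24.6 and 26.5 FPKM in U251TR libraries, against 53.8, 64.0 and 51.9 FPKM in U251MG (log2 fold change -1.11, SE 0.09, limma adjusted p = 1.43e-06). The U251TR libraries lay close together and far under the lowest U251MG library. COX6C fell by 0.59, to 280 ± 13.2 FPKM in U251TR, against 422 ± 40.6 FPKM in U251MG. The rises were COX5A, a subunit on the matrix side, and COX4I1, the usual form of the regulatory subunit 4, which averaged 359 ± 26.3 FPKM in U251TR and 264 ± 10 FPKM in U251MG (0.44, SE 0.08, limma adjusted p = 0.000513). COX5A had 222, 238 and 281 FPKM in U251TR libraries, against 153, 214 and 156 FPKM in U251MG (0.51, SE 0.14, limma adjusted p = 0.00906), with U251MG replicate 2 again the nearest to U251TR.

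COX6B2, the testis form of COX6B, and COX7A1, the heart and muscle form of COX7A, were at or under 0.44 and 0.78 FPKM in every library, while the usual forms COX6B1 and COX7A2 were at 162 to 318 and 131 to 210 FPKM. COX6A1 averaged 514 ± 39.2 FPKM in U251TR and 584 ± 17.5 FPKM in U251MG. That small fall (log2 fold change -0.19, limma adjusted p = 0.0395) held in 10 of 22 other settings. NDUFA4, a complex IV subunit despite its name, averaged 66.3 ± 1.43 FPKM in U251TR and 76.0 ± 12.1 FPKM in U251MG, with no pass. Its paralog NDUFA4L2, known to be induced by low oxygen, was at 3.74 to 5.20 FPKM in U251TR and 2.70 to 6.86 FPKM in U251MG.

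In complex V 5 of 18 nuclear members rose and 4 fell in U251TR, 27.8% and 22.2%, where 33.6% and 19.6% of all genes tested did. The 18 include ATP5S and ATP5SL, which are not subunits and did not pass. They also include the readthrough ATP5J2-PTCD1, which was among the 5 rises. The rises included 2 of the 3 genes that make the same c ring protein, ATP5G1 and ATP5G3. ATP5G3 had 221, 229 and 245 FPKM in U251TR libraries, against 146, 206 and 147 FPKM in U251MG (log2 fold change 0.49, SE 0.13, limma adjusted p = 0.00728). ATP5G1 had 178, 200 and 219 FPKM in U251TR libraries, against 106, 181 and 104 FPKM in U251MG (0.65, SE 0.20, limma adjusted p = 0.0143). U251MG replicate 2 overlapped the U251TR libraries of ATP5G1, and that call was lost without U251TR replicate 3, U251MG replicate 1 or U251MG replicate 3 (highest limma adjusted p = 0.0636). ATP5G2, the third c ring gene, averaged 275 ± 18.1 FPKM in U251TR and 300 ± 18.2 FPKM in U251MG and did not pass.

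The falls in complex V were led by ATP5I, the e subunit of the membrane part, with 214, 208 and 249 FPKM in U251TR libraries, against 350, 452 and 395 FPKM in U251MG (log2 fold change -0.83, SE 0.11, limma adjusted p = 6.24e-05). ATP5D, the delta subunit of the central stalk, had 145, 162 and 171 FPKM in U251TR libraries, against 256, 257 and 240 FPKM in U251MG (-0.65, SE 0.08, limma adjusted p = 3.03e-05). Neither gene had overlapping libraries. The catalytic subunit ATP5B did not pass, with a log2 fold change of -0.16, while ATP5C1 and ATP5O fell. The 2 complex V subunits with names outside the rule also both fell in U251TR, each with a log2 fold change of -0.31. Neither passed in U87TR.

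The 3 members on chromosome X, COX7B, NDUFA1 and NDUFB11, all fell in U251TR and were, with ATP5I, its 4 largest falls among nuclear members. In U87TR none of them passed, with log2 fold changes of -0.01, 0.29 and -0.09. Among the 492 other tested genes of chromosome X, 44.7% fell in U251TR, with a median of -0.21, and 14% fell in U87TR. Their promoters are shown because these genes share a chromosome and a direction. Each is the 200 bases before the transcription start, 5′ to 3′ on the gene's strand, from RefSeq on GRCh38.p14. COX7B is at chrX:77899268-77899467 on the plus strand, NDUFA1 at chrX:119871632-119871831 on the plus strand and NDUFB11 at chrX:47144703-47144902 on the minus strand. Capitals mark a match to the motif of ETS factors, CCGGAAG, on either strand.
COX7B: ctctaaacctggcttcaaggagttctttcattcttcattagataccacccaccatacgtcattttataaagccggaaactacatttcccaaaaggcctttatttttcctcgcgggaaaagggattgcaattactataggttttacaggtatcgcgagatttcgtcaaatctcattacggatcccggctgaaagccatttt
NDUFA1: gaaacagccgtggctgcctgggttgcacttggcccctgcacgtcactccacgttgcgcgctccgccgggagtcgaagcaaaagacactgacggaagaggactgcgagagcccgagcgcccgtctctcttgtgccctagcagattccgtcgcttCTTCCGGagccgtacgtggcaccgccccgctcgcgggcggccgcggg
NDUFB11: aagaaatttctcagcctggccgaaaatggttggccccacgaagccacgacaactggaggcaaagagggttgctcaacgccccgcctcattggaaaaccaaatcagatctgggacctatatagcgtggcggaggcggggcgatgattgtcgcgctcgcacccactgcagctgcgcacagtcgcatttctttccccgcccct

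Only NDUFA1 of these 3 holds that match, and none holds the NRF1 motif or the YY1 motif AAGATGGC, both searched on either strand. NRF1, ETS factors such as GABPA and YY1 are well-known activators of subunit genes. Over windows of 250 bases before to 50 after the start, available for 63 nuclear members, the NRF1 motif was found in 20.6%, the ETS motif in 27.0% and the YY1 motif in 15.9%. Of 27305 promoters in the table, 6.28%, 10.7% and 3.03% held them, and of 15843 protein-coding ones 8.58%, 14.2% and 3.91%. A match is a description of the letters, not a sign of binding.

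In U87TR 4 of 75 nuclear members rose and 6 fell, which is 5.33% and 8%, where 10.6% of all genes tested rose and 17.2% fell. All of these are among the 70 subunits proper, of which they make up 5.71% and 8.57%. Of all 92 members, 15 had all U87TR libraries above and 14 all below those of U87MG, where 18.3% and 28.3% of genes tested did. The median log2 fold change of the 75 nuclear members was -0.052, where that of all genes was -0.049. The rises numbered 10 on TPM, 8 under quantile normalization, 10 with the mitochondrial genes removed and the rest rescaled, and 8 without U251MG replicate 2, a library that enters through the shared estimate of spread. In those settings 11.9%, 13%, 11.8% and 13.9% of all genes tested rose.

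The falls in U87TR were few but included both of the strongest changes in that line. COX8A, the common form of the smallest complex IV subunit, had 348, 350 and 391 FPKM in U87TR libraries, against 737, 800 and 749 FPKM in U87MG (log2 fold change -1.07, SE 0.09, limma adjusted p = 2.22e-06). ATP5A1, the alpha subunit of the catalytic head of ATP synthase, had 144, 147 and 148 FPKM in U87TR libraries, against 292, 277 and 249 FPKM in U87MG (-0.89, SE 0.11, limma adjusted p = 0.000116). U87TR libraries of both genes were well clear of U87MG. In U251TR both were near their parent, with log2 fold changes of -0.09 and -0.10.

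NDUFS3, a core subunit of the quinone module, had 49.4, 49.5 and 58.7 FPKM in U87TR libraries, against 85.6, 83.9 and 67.9 FPKM in U87MG (log2 fold change -0.58, SE 0.12, limma adjusted p = 0.00302). U87MG replicate 3 was the nearest to U87TR. NDUFB10, of the distal membrane arm, had 78.2, 82.4 and 87.2 FPKM in U87TR libraries, against 106, 133 and 112 FPKM in U87MG (-0.49, SE 0.09, limma adjusted p = 0.00169). Its libraries did not overlap. COX8A, ATP5A1, NDUFS3 and NDUFB10 fell under all 22 other settings.

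The 4 rises in U87TR were ATP5I, ATP5L, NDUFB1 and COX6C. ATP5I had 430, 397 and 500 FPKM in U87TR libraries, against 309, 307 and 283 FPKM in U87MG (log2 fold change 0.55, SE 0.11, limma adjusted p = 0.00315). COX6C had 382, 385 and 426 FPKM in U87TR libraries, against 308, 306 and 278 FPKM in U87MG (0.42, SE 0.08, limma adjusted p = 0.0032). NDUFB1, an accessory complex I subunit, rose by 0.42 and ATP5L, the g subunit of ATP synthase, by 0.43, the last in 17 of 22 other settings. In all 4 genes every U87TR library was above every U87MG library.

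**Figure D4:**
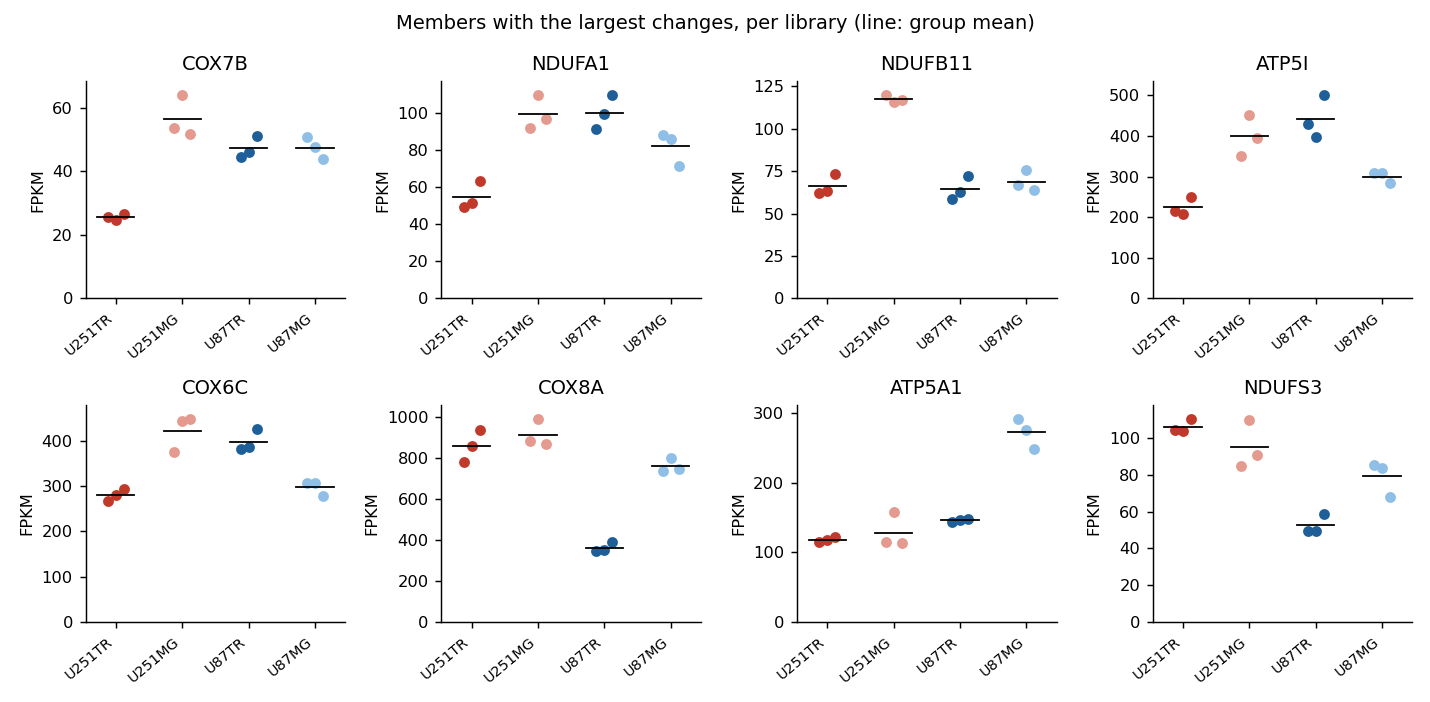
FPKM per library, with a line for the group mean, of 8 members with large changes. COX7B, NDUFA1 and NDUFB11 are lower in U251TR than in U251MG, COX8A, ATP5A1 and NDUFS3 are lower in U87TR than in U87MG, and ATP5I and COX6C are below the parent in U251TR and above it in U87TR.

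Direct tests of the difference between the lines gave 19 nuclear members with a higher change in U87 and 16 with a lower one, 25.3% and 21.3% of 75, where 15.4% and 32.1% of all genes tested passed. Under median-of-ratios scaling these were 26 and 8, where 20.7% and 24.3% of all genes tested passed. The 16 became 10 without U251MG replicate 1 or without U87TR replicate 1, where 29.7% and 29.5% of all genes tested were lower. Of the 70 subunits proper, 19 had a higher change in U87 and 14 a lower one (27.1% and 20%). ATP5I had the largest difference, 1.38 on the log2 scale (SE 0.16, limma adjusted p = 2.54e-05), and with COX6C (1.01, SE 0.12, limma adjusted p = 3.36e-05) it was called in opposite directions in the 2 lines. NDUFA1 and COX7B had differences of 1.15 and 1.10, COX8A of -0.98, ATP5G1 of -0.82 and NDUFB6 of -0.80. The difference of ATP5G1 was lost in 9 of 22 other settings. Complex II stood with lower differences, SDHA at -0.80 and SDHC at -0.36, the last in 10 of 22 other settings, while SDHB did not pass. NDUFV1 was the one nuclear member besides ATP5D that fell in both lines. Its difference was -0.03 and did not pass, and that of ATP5D was 0.39 (limma adjusted p = 0.0138).

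Changes of nuclear members were set beside those of genes next to them on the chromosome, a measure chosen after the data were seen. For each member, the median log2 fold change of up to 10 tested genes on either side that are no members was taken, in the gene order of GRCh38.p14. Across 75 members, Pearson's r between a member and its neighbours was 0.746 in U251TR (Spearman's rho 0.717) and 0.664 in U87TR (rho 0.361). It was 0.731 and 0.660 without the 3 members on chromosome X. For 13562 other tested genes r was 0.310 in U251TR and 0.267 in U87TR, and for the 8005 of them at 10 FPKM or more on average, 0.344 and 0.314 (rho 0.410 and 0.223). A member had the sign of its neighbours' median in 68.0% of cases in U251TR and 61.3% in U87TR, near the 64.7% and 61.0% of those 8005 genes. Of members called, all 15 that rose in U251TR and all 6 that fell in U87TR had neighbours with a median of the same sign, as had 14 of the 19 that fell in U251TR and 1 of the 4 that rose in U87TR. Most members, called or not, had a positive neighbour median in U251TR and a negative one in U87TR. That alone makes the same sign common for rises in U251TR and for falls in U87TR. The share among all called genes was not taken. Members and neighbours share libraries, and close members share neighbours, so these are descriptions with no test.

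**Figure D5:**
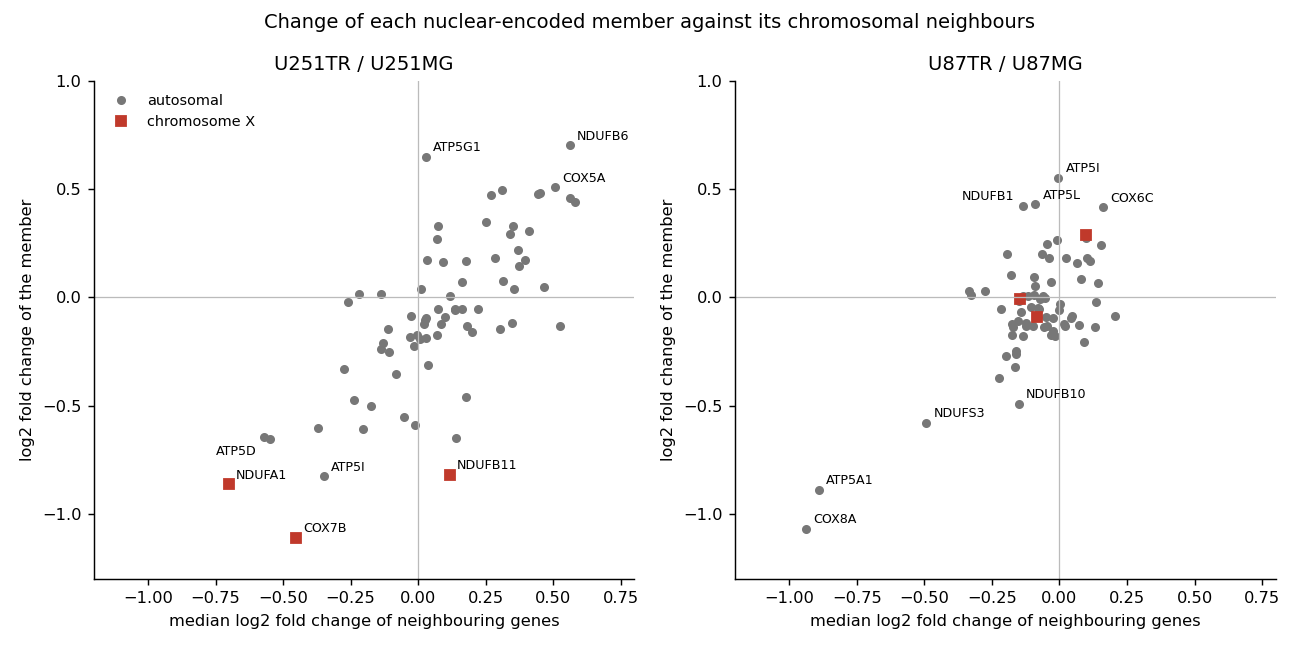
The log2 fold change of each of 74 nuclear members (vertical axis) against the median log2 fold change of the member's tested neighbours (horizontal axis), U251TR over U251MG left and U87TR over U87MG right, with squares for chromosome X. In U87TR COX8A, ATP5A1 and NDUFS3 sit apart at the lower left, and in U251TR NDUFB11 and ATP5G1 lie near 0 on the horizontal axis.

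COX8A and NDUFS3 lie on chromosome 11 and ATP5A1 on chromosome 18. In U87TR 19 of the 20 neighbours of COX8A had a negative fold change and 16 fell, with a median of -0.94, beside -1.07 for COX8A itself. For ATP5A1 18 of 20 were negative and 16 fell, with a median of -0.89, the same as the gene. For NDUFS3 19 were negative and 15 fell, with a median of -0.49. Over chromosome 11 as a whole 40.2% of 733 other tested genes fell in U87TR and over chromosome 18 45.8% of 190, where 17.2% of all genes tested did. What moves neighbouring genes together was not tested.

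The 200 bases before the start of the pair on chromosome 11 are shown because both fell in U87TR, with their neighbours. COX8A is at chr11:63974420-63974619 and NDUFS3 at chr11:47578874-47579073, both on the plus strand of GRCh38.p14, from RefSeq, with ETS matches in capitals.
COX8A: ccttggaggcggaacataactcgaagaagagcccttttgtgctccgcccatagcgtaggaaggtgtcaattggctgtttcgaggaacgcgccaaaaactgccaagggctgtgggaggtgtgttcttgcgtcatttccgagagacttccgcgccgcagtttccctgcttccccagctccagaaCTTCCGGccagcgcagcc
NDUFS3: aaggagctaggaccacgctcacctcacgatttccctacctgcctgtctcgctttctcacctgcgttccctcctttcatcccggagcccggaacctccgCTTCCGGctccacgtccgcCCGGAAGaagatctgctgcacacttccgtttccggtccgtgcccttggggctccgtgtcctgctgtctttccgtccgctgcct

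COX8A holds 1 ETS match and NDUFS3 holds 2. The ETS motif also occurs in 10.7% of all promoters and in NDUFA1, which did not pass in U87TR.

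Among the rises in U251TR, NDUFB6 on chromosome 9 had 19 of 20 neighbours with a positive fold change, 15 of which rose, and their median was 0.56 beside 0.70 for the gene. COX5A on chromosome 15 had 17 positive and 14 that rose (median 0.50), and NDUFB3 on chromosome 2 had 17 and 14 (median 0.45). Of the other tested genes of chromosomes 2, 9 and 15, 50.5%, 42.1% and 50.3% rose in U251TR, where 33.6% of all genes tested did.

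Among the falls, ATP5D on chromosome 19 had a neighbour median of -0.55 with 12 of 20 that fell, NDUFA1 one of -0.70 with 13 of 20, and COX7B one of -0.45 with 12 of 20. Of the 9 members tested on chromosome 19, 5 fell in U251TR by limma and none rose, at an unadjusted p under 0.05 either, where 31.5% of 948 other tested genes there fell. The neighbours of NDUFB11 had a median of 0.12 and 2 of 20 fell, and those of ATP5O and COX6C had medians of 0.18 and -0.012. In U87TR ATP5L and NDUFB1 rose beside neighbour medians of -0.089 and -0.13. ATP5G1 on chromosome 17 rose beside a neighbour median of 0.03. Spearman's rho between the change of a nuclear member and its transcript length was 0.08 in U251TR and -0.20 in U87TR (n = 75, median length 894 nucleotides). For 13532 other tested genes it was -0.04 and -0.11. In U87TR the median change was -0.0033 for members under 800 nucleotides and -0.0851 for longer ones. For the other genes these medians were 0.0075 and -0.0665. The part of transcript length in the changes was not tested.

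ATP5I, called in opposite directions in the 2 lines, lies on chromosome 4. Its neighbours had a median of -0.35 in U251TR, where 9 of 16 fell, and of -0.0048 in U87TR, where 3 fell and 1 rose. Its 200 bases before the start, at chr4:674277-674476 on the minus strand of GRCh38.p14 (RefSeq), are shown with an NRF1 motif match in capitals. The wider window of 250 bases before to 50 after the start held 2 NRF1 matches and 1 ETS match.
ATP5I: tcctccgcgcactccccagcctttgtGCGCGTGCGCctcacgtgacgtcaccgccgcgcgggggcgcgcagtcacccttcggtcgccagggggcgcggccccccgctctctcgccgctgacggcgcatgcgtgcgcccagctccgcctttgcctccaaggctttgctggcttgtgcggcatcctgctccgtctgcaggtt

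The parental lines differed from each other in more nuclear members than either resistant line did from its parent, as over all genes tested. In U87MG against U251MG 27 were higher and 29 lower, 36% and 38.7% of 75, where 72.3% of all genes tested differed, 32.2% higher and 40.1% lower in U87MG. Under median-of-ratios scaling 27 were higher and 19 lower, where 35.8% and 36.5% of all genes tested were. Under quantile normalization these were 20 and 33, where 34.7% and 37.7% of all genes tested were. Of the 70 subunits proper, 25 were higher and 26 lower (35.7% and 37.1%). Of all 92 members, 31 had all U87MG libraries above and 37 all below those of U251MG, where 32% and 40.3% of genes tested did. COX4I1 was at 608, 656 and 588 FPKM in U87MG libraries, against 261, 275 and 255 FPKM in U251MG (log2 fold change 1.22, SE 0.08, limma adjusted p = 3.15e-08). ATP5A1 was higher by 1.09 and NDUFB3 by 0.98. NDUFA12, a NADH module subunit, was at 50.3, 52.2 and 49.4 FPKM in U87MG libraries, against 112, 108 and 113 FPKM in U251MG (-1.12, SE 0.08, limma adjusted p = 7.1e-08). NDUFB9 was lower by 1.08 and NDUFS6 by 0.94 on the log2 scale. None of these 6 had overlapping libraries.

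Between the parents 7 nuclear members of complex I were higher in U87MG and 17 lower (20.6% and 50% of 34), 4 and 2 of complex III, 4 and 5 of complex IV and 10 and 5 of complex V (55.6% and 27.8% of 18), beside the 32.2% and 40.1% of all genes tested. Some of these are not subunits proper. In complex V they were ATP5SL among the higher, and ATP5S and ATP5J2-PTCD1 among the lower. In complex IV they were COX7A2L among the higher and NDUFA4L2 among the lower. Of the 8 NADH module members, 6 were lower in U87MG, and by limma none was higher, at an unadjusted p under 0.05 either. All 4 peripheral stalk genes and all 3 c ring genes of the ATP synthase were higher in U87MG, by 0.25 to 0.82 and 0.24 to 0.80 on the log2 scale, whereas 2 of the 3 nuclear membrane subunit genes beside them, ATP5I and ATP5L, were lower. Of these calls that of ATP5G2 held in 17 of 22 other settings. Summed over its nuclear members, complex I was at 4989 to 5320 FPKM in U87MG and 5972 to 6258 FPKM in U251MG, and complex V at 4474 to 4873 FPKM in U87MG and 3706 to 4452 FPKM in U251MG. For both sums the libraries did not overlap.

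Of the 13 mitochondrially encoded genes, 5 were higher and 3 lower in U87MG than in U251MG, 38.5% and 23.1%, where 32.2% and 40.1% of all genes tested were. MT-ND1 was at 2325, 2250 and 1923 FPKM in U87MG libraries, against 1228, 1316 and 1219 FPKM in U251MG (log2 fold change 0.78, SE 0.08, limma adjusted p = 2.05e-06). MT-CYB was at 1506, 1616 and 1660 FPKM in U87MG libraries, against 2470, 2252 and 2441 FPKM in U251MG (-0.58, SE 0.07, limma adjusted p = 1.25e-05). For MT-CYB the U251TR libraries, at 1478 to 1675 FPKM, overlapped those of U87MG, while for MT-ND1 they were at 1181 to 1203 FPKM, under both parents. The parents' share of mitochondrial subunits in summed FPKM was 8.13% ± 0.262 in U87MG and 7.77% ± 0.477 in U251MG (SD, n = 3 each), with overlap. That difference of 0.367 percentage points was 0.156 with the ribosomal RNAs in the sum.

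Genes that serve the complexes, in lists taken from general knowledge, changed in both directions. For the counts in these lists, the shares over all genes tested were 33.6% that rose and 19.6% that fell in U251TR, and 10.6% and 17.2% in U87TR. Of 16 complex I assembly factors 1 rose and 3 fell in U251TR, and 3 fell in U87TR. Of 22 complex IV assembly factors 5 rose and 5 fell in U251TR, and 4 rose and 4 fell in U87TR. In U251TR NDUFAF5, which modifies a complex I core subunit, had a log2 fold change of -1.35, and SCO2, a copper chaperone of complex IV, rose by 0.80. In U87TR SCO1, another copper chaperone, fell by 0.57. ATPIF1, the inhibitor protein of ATP synthase, rose in both lines, to 350 ± 56.4 FPKM in U251TR, against 173 ± 0.646 FPKM in U251MG, and to 352 ± 31.7 FPKM in U87TR, against 272 ± 32.7 FPKM in U87MG (log2 fold changes 1.00 and 0.37, limma adjusted p = 2.13e-05 and 0.0347).

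CYCS, the cytochrome c that links complexes III and IV, fell to 142 ± 5.31 FPKM in U251TR, against 223 ± 38.4 FPKM in U251MG (log2 fold change -0.63, limma adjusted p = 0.000786), and was level in U87 (144 ± 10.2 FPKM in U87TR and 144 ± 13.4 FPKM in U87MG). Of 11 carriers of adenine nucleotides, phosphate and protons 1 rose and 6 fell in U251TR, 9.09% and 54.5%, and 2 fell in U87TR. The rise in U251TR was UCP2, of the uncoupling protein family, at 67.0 ± 4.32 FPKM in U251TR and 15.6 ± 3.55 FPKM in U251MG (2.06, limma adjusted p = 1.86e-06). SLC25A5, an ADP/ATP carrier, fell by 1.01 in U251TR.

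Of 17 genes for mitochondrial DNA replication and transcription 4 rose and 5 fell in U251TR, and 2 fell in U87TR. The falls in U251TR were led by C10orf2, the mitochondrial helicase Twinkle (14.7 ± 1.99 FPKM, against 29.2 ± 3.39 FPKM in U251MG), and TFB2M, a transcription factor of the organelle (10.3 ± 0.824 FPKM, against 18.4 ± 0.236 FPKM). TFAM, which packs mitochondrial DNA, fell in both lines, by 0.36 in U251TR and 0.43 in U87TR. Of 74 mitochondrial ribosome proteins 12 rose and 17 fell in U251TR, 16.2% and 23%, and 3 rose and 13 fell in U87TR, 4.05% and 17.6%. Of 16 genes for mitochondrial RNA processing 3 rose and 5 fell in U251TR, and 1 rose and 1 fell in U87TR. Of 21 mitochondrial proteases, import factors and chaperones 3 rose and 8 fell in U251TR, and 3 fell in U87TR. Of 26 genes of the tricarboxylic acid cycle and pyruvate entry 8 rose and 7 fell in U251TR, and 2 rose and 6 fell in U87TR. Of 13 genes of ubiquinone synthesis, the carrier between complexes I or II and III, 4 rose and 2 fell in U251TR, and 4 fell in U87TR. The lists of assembly factors of complexes II, III and V, with 4, 5 and 5 genes tested, had 4 rises and 2 falls together in U251TR and 2 rises and 1 fall in U87TR.

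Of 11 nuclear regulators of respiratory genes 3 fell in U251TR. PPARGC1A, the coactivator PGC-1 alpha, fell to 4.56 ± 0.664 FPKM in U251TR, against 16.3 ± 1.47 FPKM in U251MG (log2 fold change -1.64, limma adjusted p = 1.45e-05). NRIP1, a corepressor that opposes it, fell to 2.45 ± 0.352 FPKM, against 39.9 ± 1.63 FPKM (-3.57, limma adjusted p = 1.9e-10). In U87TR 1 rose and 1 fell, ESRRA, a nuclear receptor that activates respiratory genes, at 20.2 ± 2.62 FPKM in U87TR and 48.6 ± 5.85 FPKM in U87MG (-1.23, limma adjusted p = 3.34e-05). ESRRA is, like COX8A, on chromosome 11.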

How the data were processed

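RNA libraries were made with a TruSeq kit and read in pairs on an Illumina HiSeq, per the labels' protocols. STAR 2.5.2b and RSEM 1.2.31 are named, per the submitters' processing notes, which name hg19 as the build, whereas the series' design text names hg38. The deposited values were taken as FPKM, per gene symbol, from their sums and from value times length, since no label names the unit. FPKM divides by each library's total, so a few abundant RNAs can shift all others.

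Fits used limma 3.58.1 (R 4.3.3) on log2(FPKM + 1), with 1 mean per line over all 12 libraries, a trended and robust variance and Benjamini-Hochberg adjustment over 15449 genes, two-sided. In all, 27 symbols that a spreadsheet had turned into dates were removed. A run on simulated data with known changes preceded the fits. Promoters came from RefSeq on GRCh38.p14. Tables were handled in Python 3.11.15 with pandas 2.3.3.

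Members, lists and tests were chosen with earlier results of these data known, and the measures of neighbours, chromosomes, motifs and transcript length were added after seeing the values. Named were all mitochondrial members, and of nuclear members called, with at least 10 FPKM, the 5 largest rises and 5 largest falls with no overlap per resistant line, and the 3 largest in each direction for the difference and for the parents. Isoform and complex II genes were named by a fixed list, and of other lists at most the 2 largest calls per comparison. UQCRC1, ATP5B, ATP5C1, ATP5O, VIM, SOX2 and, in U251TR, TFAM were named after their values were seen. A nuclear member that the naming rule picks is not reported here. A permutation test of the mitochondrial share, planned at first, is not given. Alternatives covered pseudocounts of 0.1 and 5, filters, scalings, a replicate block, a fit of 6 libraries and each library left out.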

Additional observations from a re-analysis of the deposited data

Results flagged for a closer look

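In 24 named members the change in U87TR over U87MG differed from the change in U251TR over U251MG, by limma's test of that difference with Benjamini-Hochberg adjustment under 0.05. Values are the U87 change minus the U251 change on the log2 scale. The difference was positive in 9 nuclear members, with values of ATP5I 1.38, NDUFA1 1.15, COX7B 1.10, COX6C 1.01, NDUFB11 0.73, NDUFA12 0.65, NDUFB1 0.64, ATP5L 0.51 and ATP5D 0.39. In the mitochondrially encoded genes it was positive in 4, with values of MT-CO3 0.67, MT-CYB 0.53, MT-ATP6 0.45 and MT-ND3 0.38. It was negative in 11 nuclear members, with values of COX8A -0.98, ATP5G1 -0.82, NDUFB6 -0.80, SDHA -0.80, ATP5A1 -0.78, NDUFS3 -0.75, COX5A -0.62, ATP5G3 -0.58, COX4I1 -0.57, NDUFB10 -0.51 and SDHC -0.36. Among all genes tested, 47.6% had such a difference. Since U87TR libraries come from another number block, the part of that block in these differences was not tested.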

How the results depend on the processing

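Requiring a change of at least 1.5-fold besides the call left 3 nuclear members higher and 10 lower, and 1 mitochondrially encoded subunit, in U251TR. In U87TR it left 0 higher, 2 lower and 0 mitochondrial (limma without the fold called 4, 6 and 4). For the difference it left 8 higher, 9 lower and 1 mitochondrial, and between the parents 11, 9 and 1. The share of all genes tested that meets this rule is not given here, so these counts carry no comparison with other genes. Under median-of-ratios scaling 33 nuclear members fell in U251TR, 8 had a lower difference and 19 were lower in U87MG than in U251MG. Of all genes tested, 26%, 24.3% and 36.5% were lower there. The nuclear rises in U87TR were 10 on TPM, 8 under quantile normalization and 10 with mitochondrial genes removed. Over all genes tested 11.9%, 13% and 11.8% rose. With no filter on low values 2 mitochondrial subunits were called in U87TR, where 5.45% of all genes tested rose and 7.57% fell. The cause was not tested.

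Quantile normalization reversed the sign of 7 values. In U251TR MT-ND1, MT-ND2, MT-ND4L, MT-ND5 and COX8A became 0.32, 0.18, 0.26, 0.26 and 0.18, and the differences of MT-ND2 and MT-ND6 became -0.43 and -0.22. Without that normalization, MT-ND1, MT-ND5 and COX8A in U251TR and both differences did not pass. Of the other values of single members under an alternative, 3772 kept their side of the threshold, 96 of them with another sign and no pass in either, 164 no longer passed and 53 newly passed.

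Leaving out 1 library at a time gave these ranges of counts. In U251TR 11 to 22 rose, 16 to 21 fell and 7 to 8 mitochondrial subunits were called. Over all genes tested 29.6% to 36.5% rose and 16.9% to 21.5% fell. In U87TR 3 to 8 rose, 4 to 8 fell and 1 to 5 were called. There 7.83% to 13.9% of all genes tested rose and 11.7% to 22.4% fell. The difference gave 16 to 22 higher, 10 to 24 lower and 4 mitochondrial in every case. For it 13.5% to 17.9% of all genes tested were higher and 28.5% to 36.6% lower. The parents gave 20 to 28 higher, 25 to 29 lower and 6 to 10 mitochondrial. Between them 29.9% to 34% of all genes tested were higher and 38.2% to 40.5% lower. The difference in mitochondrial share ran from -0.934 to -0.456 percentage points in U251TR, from -0.395 to -0.154 in U87TR and from 0.129 to 0.606 between the parents.

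With the replicate number as a block, 15 nuclear members rose, 19 fell and 7 mitochondrial subunits were called in U251TR. In U87TR these were 4, 6 and 4, for the difference 18, 16 and 4, and between the parents 26, 27 and 9. Over all genes tested the shares higher and lower were 33.2% and 19.4% in U251TR and 10.1% and 16.4% in U87TR. They were 15.1% and 31.5% for the difference and 32% and 40.1% between the parents. Libraries of the same number correlated at -0.0579 to 0.116 in their deviations, and 2, 2 and 1 of 6 libraries correlated best with their own number, so the numbers were not taken as pairs. Read counts were not analysed here, so depth cannot be set against any value.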
